A study of Mus musculus with 9 samples.

Results

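The NK2 homeobox genes *Nkx2-1*, *Nkx2-2*, *Nkx2-3*, *Nkx2-4*, *Nkx2-5*, *Nkx2-6* and *Nkx2-9* were examined for CpG methylation in mouse embryonic stem cells (ESCs) that lack a de novo DNA methyltransferase. The 7 genes were taken by family name from the 14278 protein-coding genes for which wild type (WT) values were analysed, and the rule for choosing them used no methylation value. Earlier results of these data were known, however, when members and limits were chosen. Each gene was measured over its body, over 10 kb on both sides and within 1 kb on both sides of its transcription start site (TSS). Together these spans held 3200 of the 13328402 CpGs that had at least 3 reads in every genotype. Around the TSS, the median of the 7 genes was 5.32% methylation in WT ESCs, beside 17.8% over all genes. The span of low methylation was longer by more than 1 kb without *Dnmt3a* at 4 of the 7, beside 15.2% of all genes. Under the other smoothing, limit and depth settings this held at 3 or 4, with changing members, and the share over all genes is not given there. Over the 4 longer stretches the WT mean was under 10% too. *Nkx2-6* stood at the other end, methylated over its promoter in all genotypes.

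NK2 genes encode homeodomain transcription factors that specify organs. NKX2-1 acts in thyroid, lung and ventral forebrain, NKX2-2 in ventral neural tube and pancreas, NKX2-3 in gut and spleen, and NKX2-5 in the heart. NKX2-4 is the close relative of NKX2-1 in forebrain and thyroid, NKX2-6 is found in pharyngeal endoderm and the caudal heart, and NKX2-9 in the ventral neural tube and lung. Promoters of such developmental regulators often lie in CpG-rich, unmethylated DNA in ESCs, and the longest of these unmethylated spans are called canyons. DNMT3A and DNMT3B place methyl groups on CpGs that carry none, whereas DNMT1 copies methylation after replication.

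The cells were J1 ESCs of strain 129S4/SvJae, which were wild type, Dnmt3a-/- or Dnmt3b-/-, and all were grown with serum and LIF on gelatin. The comparison asks which de novo enzyme the methylation of these genes rests on. Whole genome bisulfite sequencing (WGBS), in which unmethylated cytosines are converted and methylated ones are not, was done on 3 libraries of each genotype, 9 libraries in all. These 3 libraries had been merged by the authors before deposit, so each value below is 1 pooled value, no replicate error can be given, and no test across replicates was possible. The labels do not say how many clones stand behind a genotype. Both knockouts (KOs) were compared with the same WT table.

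Median depth was 22 reads per CpG in WT, 20 without *Dnmt3a* and 21 without *Dnmt3b*. At the 7 genes, mean depth ranged from 13.5 to 23.4 reads, and between 79.5% and 96.4% of the CpGs in the reference sequence were covered. Over 13 CpGs of exons 18 and 19 of *Dnmt3a*, mean depth was 31.4 reads in WT, 0.308 without *Dnmt3a* and 17.2 without *Dnmt3b*. Over 32 CpGs of exons 17 to 20 of *Dnmt3b*, a span chosen after its depth was seen, mean depth was 30.8, 26.5 and 1.13 reads in the same order. Of 5 genes active in ESCs, *Pou5f1*, *Sox2* and *Klf4* had TSS methylation between 0.0594% and 0.685% in WT ESCs. *Esrrb* with 94.1% and *Tcl1* with 78.8% were methylated at the TSS of their longest isoform.

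Sequences from 5 of the sites are printed to show how differently CpGs are spread at these genes. All are mm9, run 5′ to 3′ along the strand of the gene and have each CpG in capitals. The first 3 are windows of 300 bases at *Nkx2-3*, *Nkx2-1* and *Nkx2-4*, the members with the largest difference between WT and *Dnmt3a* KO ESCs in such a window, so this difference is the reason for their choice and not a result. The *Nkx2-3* window, chr19:43694364-43694663 on the plus strand, lies outside the gene on its downstream side. The *Nkx2-1* window, chr12:57624944-57625243 on the minus strand, also lies downstream. The *Nkx2-4* window, chr2:146911772-146912071 on the minus strand, lies upstream of the TSS. The last 2 are the 300 bases just before the TSS of *Nkx2-6*, chr14:69789333-69789632 on the plus strand, and of *Nkx2-9*, chr12:57714272-57714571 on the minus strand, the members with the highest and the lowest TSS methylation in WT ESCs.
Nkx2-3 window: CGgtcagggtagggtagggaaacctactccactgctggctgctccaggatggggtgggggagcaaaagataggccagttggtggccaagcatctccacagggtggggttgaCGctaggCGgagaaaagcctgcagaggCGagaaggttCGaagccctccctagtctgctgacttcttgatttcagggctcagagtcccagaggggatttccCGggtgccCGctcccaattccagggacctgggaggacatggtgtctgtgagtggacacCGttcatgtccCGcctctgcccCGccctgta
Nkx2-1 window: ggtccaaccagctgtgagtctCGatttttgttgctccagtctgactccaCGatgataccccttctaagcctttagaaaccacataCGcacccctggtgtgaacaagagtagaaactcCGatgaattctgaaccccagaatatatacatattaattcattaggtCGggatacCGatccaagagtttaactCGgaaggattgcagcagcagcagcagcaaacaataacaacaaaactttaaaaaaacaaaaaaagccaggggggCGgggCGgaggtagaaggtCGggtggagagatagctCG
Nkx2-4 window: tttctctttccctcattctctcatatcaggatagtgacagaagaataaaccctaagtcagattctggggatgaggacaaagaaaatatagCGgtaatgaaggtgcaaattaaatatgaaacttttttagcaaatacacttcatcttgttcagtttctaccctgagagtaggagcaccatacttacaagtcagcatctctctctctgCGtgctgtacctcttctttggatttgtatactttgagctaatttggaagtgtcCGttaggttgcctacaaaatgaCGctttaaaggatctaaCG
Nkx2-6 upstream of TSS: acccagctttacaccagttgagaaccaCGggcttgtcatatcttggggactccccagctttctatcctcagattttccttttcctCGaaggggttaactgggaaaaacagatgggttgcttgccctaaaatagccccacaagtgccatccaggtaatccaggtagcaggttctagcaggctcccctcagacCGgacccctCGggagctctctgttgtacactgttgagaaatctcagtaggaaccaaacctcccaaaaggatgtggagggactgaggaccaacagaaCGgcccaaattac
Nkx2-9 upstream of TSS: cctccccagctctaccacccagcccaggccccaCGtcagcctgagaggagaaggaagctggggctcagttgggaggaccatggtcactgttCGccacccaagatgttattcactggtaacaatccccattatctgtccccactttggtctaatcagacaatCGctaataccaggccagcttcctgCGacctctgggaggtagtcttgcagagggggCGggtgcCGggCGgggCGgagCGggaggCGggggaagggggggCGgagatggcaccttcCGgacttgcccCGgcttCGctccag

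The *Nkx2-3* window holds 10 CpGs, whose mean methylation was 93.7% in WT, 18% without *Dnmt3a* and 67.2% without *Dnmt3b*. Its first CpG, at position 1 counted from the 5′ end, kept 64.5% in *Dnmt3a* KO ESCs (20 of 31 reads), whereas the CpG at position 139 had 0 of 19 methylated reads. The level was thus uneven from CpG to CpG within the window. The 11 CpGs of the *Nkx2-1* window averaged 78.3%, 6.46% and 43.4% in the same order of genotypes. The 5 CpGs of the CpG-poor *Nkx2-4* window averaged 77.8%, 7.20% and 47.5%. In all 3 windows *Dnmt3b* KO ESCs stood between the other genotypes, a place that the choice of windows favours, so it is a description only.

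The *Nkx2-6* and *Nkx2-9* sequences were not chosen for a change. The *Nkx2-6* sequence has 5 CpGs in 300 bases, and the 4 covered ones were fully methylated in WT ESCs and averaged 56.4% without *Dnmt3a* and 78.0% without *Dnmt3b*. The CpG at position 288, nearest to the TSS, had 9 of 9 methylated reads in WT, 1 of 12 without *Dnmt3a* and 13 of 20 without *Dnmt3b*. The *Nkx2-9* sequence has 14 CpGs, 63.0% G and C, and no methylated read at any of its 9 covered CpGs in any genotype. Mean depth there was 9.89 reads in WT, 6.33 without *Dnmt3a* and 8.22 without *Dnmt3b*.

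Within 1 kb of the TSS, mean methylation separated the family into 4 genes near 5%, *Nkx2-3* and *Nkx2-5* in between, and *Nkx2-6* near full methylation. In WT ESCs *Nkx2-9* had 3.79%, *Nkx2-4* 4.68%, *Nkx2-1* 4.75% and *Nkx2-2* 5.32%. The 95% Wilson intervals of their shares of methylated reads, which cover counting error only, ran from 2.04% to 4.33% for *Nkx2-9* and from 7.58% to 10.4% for *Nkx2-4*. A read was counted once at each CpG it covered, as if independent, so all such intervals can be too narrow. The interval of *Nkx2-1* ran from 4.73% to 7.59% and that of *Nkx2-2* from 5.51% to 8.35%. Between neighbours in the order of the means, the 95% interval of the difference in read share covered 0 only for *Nkx2-2* minus *Nkx2-1* (-1.26 to 2.81 points). For *Nkx2-1* minus *Nkx2-4* it ran from -4.85 to -0.825 points, so that by read share *Nkx2-4* stood above *Nkx2-1*, against the order of the means. *Nkx2-3* followed with 11.5%, *Nkx2-5* with 29.7% and *Nkx2-6* with 85.6%. The median of the 7 genes was 5.32%, beside 17.8% over 14080 genes. The place of *Nkx2-4* near 5% rests largely on CpGs with fewer than 10 reads in some genotype. Over the 21 of its 166 CpGs that had at least 10 reads in every genotype, it had 24.4% in WT, 1.96% without *Dnmt3a* and 15.6% without *Dnmt3b*. With 3 or more reads, WT ESCs had 0.724% over 76 CpGs in the first 500 bp past the TSS and 1.91% over 68 in the next. Between 500 bp and 1 kb upstream, 6 CpGs had 70.6%. The level thus depends on which CpGs are kept.

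Without *Dnmt3a*, TSS methylation was 0.290% at *Nkx2-9*, 0.823% at *Nkx2-4*, 1.2% at *Nkx2-2* and 3.35% at *Nkx2-3*. At *Nkx2-1* it was 4.34%, beside 4.75% in WT, but within 500 bp of the TSS it was 1.35% beside 4.23% in WT. The levels of the pair of heart-related genes were higher, with 12.3% at *Nkx2-5* and 54.8% at *Nkx2-6*. Without *Dnmt3b*, TSS methylation was 2.15% at *Nkx2-1*, 2.08% at *Nkx2-2*, 6.06% at *Nkx2-3*, 3.37% at *Nkx2-4*, 23.4% at *Nkx2-5*, 77.4% at *Nkx2-6* and 3.20% at *Nkx2-9*. By read share *Nkx2-1* was not below WT without *Dnmt3a*, where it had 6.06%. All 7 means were below WT in both KOs, and *Nkx2-1* alone was lower in *Dnmt3b* KO than in *Dnmt3a* KO ESCs. Within 500 bp of the TSS this order turned at *Nkx2-1*, with 1.35% without *Dnmt3a* and 1.74% without *Dnmt3b*, while *Nkx2-3* (2.76% and 1.74%) and *Nkx2-9* (0.196% and 0.147%) were the lower ones without *Dnmt3b*. At the farthest of the 4 annotated TSSs of *Nkx2-2*, both KOs were above WT, with 0.580% in WT, 0.727% without *Dnmt3a* and 1.06% without *Dnmt3b*.

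**Figure D1:**
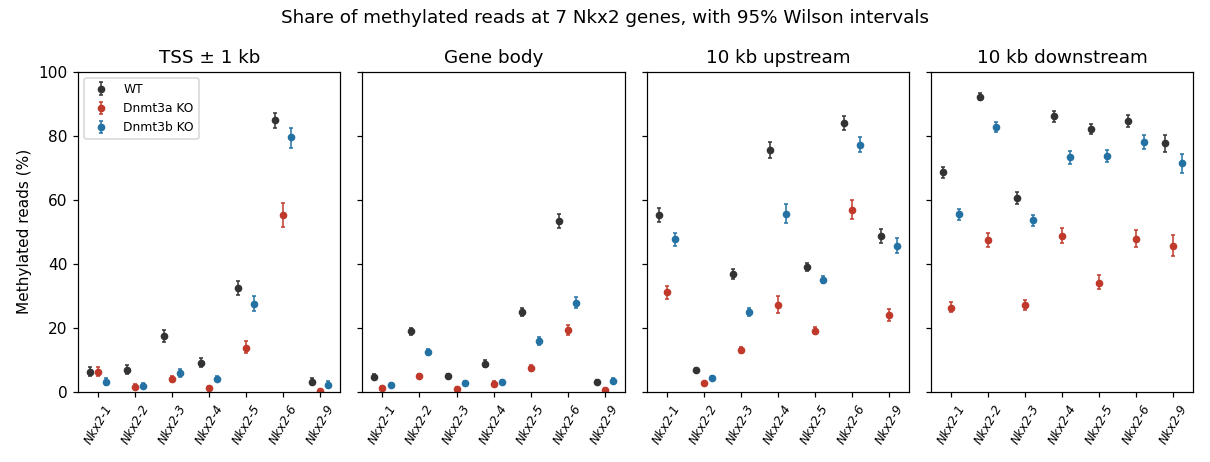
Share of methylated reads (%, vertical axis) at each of the 7 *Nkx2* genes in 4 spans, in WT (black), *Dnmt3a* KO (red) and *Dnmt3b* KO ESCs (blue), 1 pooled value per genotype, with bars for 95% Wilson intervals of counting error. *Nkx2-6* has the highest share at the TSS and in the body in every genotype, and the red points lie lowest in every downstream flank.

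A member was counted as lower when its mean methylation lay more than 20 percentage points below WT. At the TSS this held for 1 member in *Dnmt3a* KO ESCs, *Nkx2-6*, with a difference of -30.8 points (95% interval of the difference in read share -34.1 to -25.2). The result differed between strands there, though CpGs were filtered by strand and the sets need not be the same. With Watson strand reads the difference was -50.9 points (87.6% in WT and 36.7% in the KO), and with Crick strand reads it was -12.9 points (87.6% and 74.7%), over 23 CpGs each, so the call was lost on the Crick strand. *Nkx2-5*, with -25.0 points, passed the limit on that strand instead. Over all genes the share was 40.9%. In *Dnmt3b* KO ESCs it held for 0 members, with 2.51% over all genes. Since 5 of the members were below 20% in WT ESCs, a drop of more than 20 points was open only to *Nkx2-5* and *Nkx2-6* when all CpGs with 3 or more reads were used. With at least 10 reads *Nkx2-4* passed the limit too, with -22.4 points over the 21 CpGs left. The median difference of the members was -4.11 points in *Dnmt3a* KO ESCs, beside -12.3 over all genes, and -3.24 points in *Dnmt3b* KO ESCs, beside -3.73.

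Relative to its WT level, *Nkx2-9* kept 7.65% of its TSS methylation in *Dnmt3a* KO ESCs, *Nkx2-4* kept 17.6% and *Nkx2-2* 22.6%. *Nkx2-5* kept 41.5%, *Nkx2-6* 64.0% and *Nkx2-1* 91.3%. In *Dnmt3b* KO ESCs the shares kept ran from 39.1% at *Nkx2-2* to 90.4% at *Nkx2-6*. The interval of the difference in read share covered 0 for *Nkx2-1* in *Dnmt3a* KO (-1.97 to 2.07 points) and for *Nkx2-9* in *Dnmt3b* KO ESCs (-2.33 to 0.73 points), so at this depth no difference was detectable there.

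The TSS regions also differ in sequence. *Nkx2-4* was richest, with 8.90 CpGs per 100 bases and 62.4% G and C, and *Nkx2-6* was poorest, with 2.60 CpGs per 100 bases and 49.6% G and C. The other 5 genes had between 3.35 and 4.60 CpGs per 100 bases. *Nkx2-5* with 29.7% methylation and *Nkx2-9* with 3.79% had 3.40 and 3.35 CpGs per 100 bases.

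**Figure D2:**
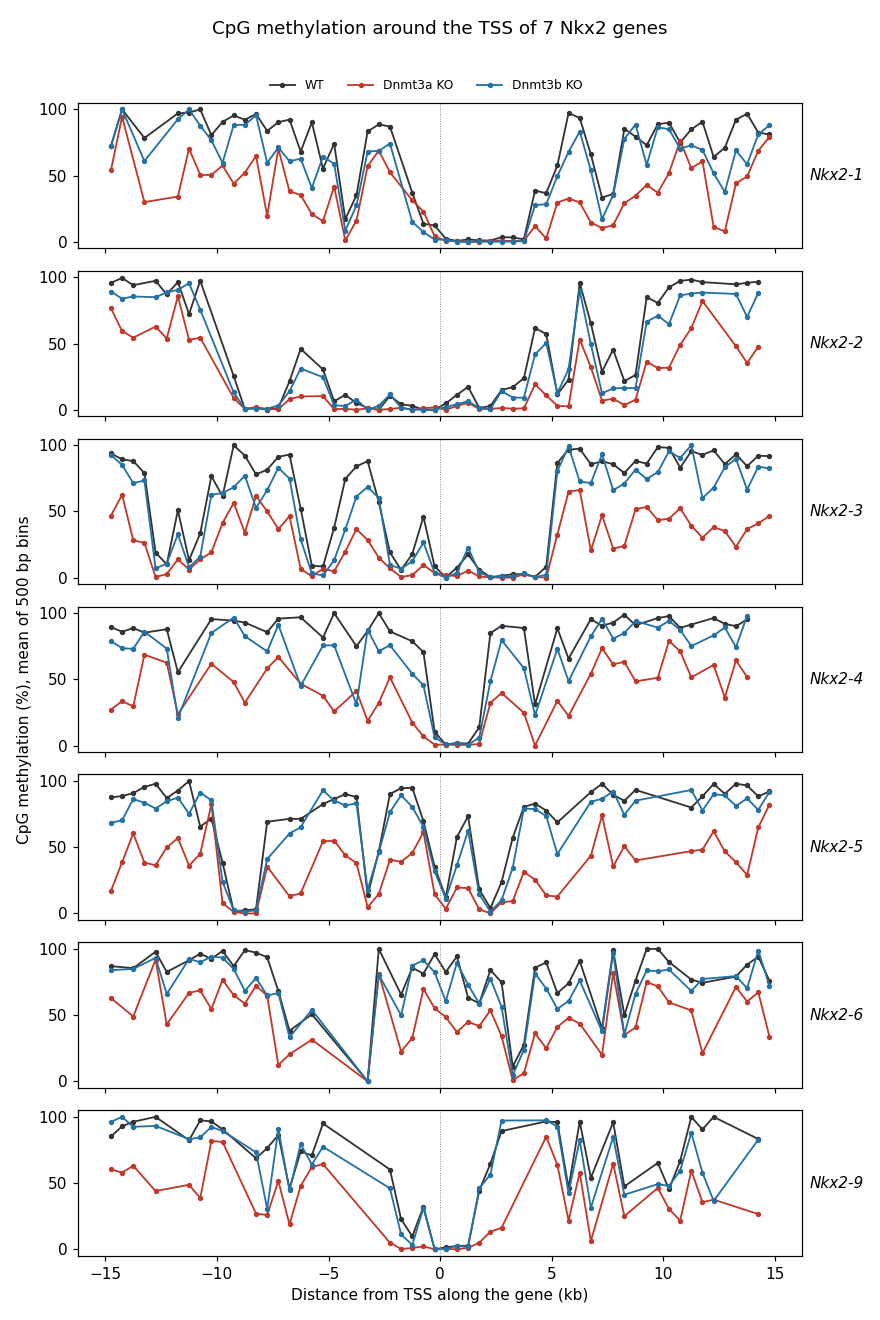
Mean CpG methylation (%, vertical axis) in 500 bp bins against the distance from the TSS in kb, in the direction of transcription, for the 7 *Nkx2* genes in WT (black), *Dnmt3a* KO (red) and *Dnmt3b* KO ESCs (blue); lines join bins across gaps without covered CpGs. *Nkx2-1*, *Nkx2-2*, *Nkx2-3*, *Nkx2-4* and *Nkx2-9* have a floor near 0 at the TSS, which *Nkx2-6* lacks, and outside the floor the red line runs below the others in most bins.

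The length of the unmethylated span was measured next, as the stretch around the TSS in which the running mean of 5 CpGs stayed under 10%. A CpG at 50% or more among unmethylated ones ends such a stretch. In WT ESCs the stretch measured 2407 bp at *Nkx2-1*, 1928 bp at *Nkx2-2*, 1581 bp at *Nkx2-9*, 856 bp at *Nkx2-3*, 663 bp at *Nkx2-4* and 81 bp at *Nkx2-5*. *Nkx2-6* had none in any genotype. The median of the 7 genes was 856 bp, beside 504 bp over all genes. With a limit of 5% in place of 10% this order turned, with 20 bp beside 262 bp.

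In *Dnmt3a* KO ESCs the stretch measured 6134 bp at *Nkx2-2*, 4396 bp at *Nkx2-1*, 4341 bp at *Nkx2-9*, 2480 bp at *Nkx2-4*, 1800 bp at *Nkx2-3* and 601 bp at *Nkx2-5*. It was longer than in WT by more than 1 kb at 4 of the 7 members, *Nkx2-1*, *Nkx2-2*, *Nkx2-4* and *Nkx2-9*, beside 15.2% of all genes. In *Dnmt3b* KO ESCs it measured 4792 bp at *Nkx2-1*, 2047 bp at *Nkx2-2*, 1841 bp at *Nkx2-4*, 1638 bp at *Nkx2-9*, 1303 bp at *Nkx2-3* and 32 bp at *Nkx2-5*. Here it was longer by more than 1 kb at 2 members, *Nkx2-1* and *Nkx2-4*, beside 3.01% of all genes. The members' median was 2480 bp without *Dnmt3a* and 1638 bp without *Dnmt3b*, and over all genes it was 1042 bp and 698 bp. With a limit of 5% the members had 638 and 512 bp, beside 683 and 466 bp over all genes.

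The ends of the stretch moved unequally. At *Nkx2-2* the stretch of *Dnmt3a* KO ESCs reached 5283 bp upstream of the TSS, where that of WT reached 1899 bp, and ended 850 bp past the TSS, where that of WT ended at 28 bp. At *Nkx2-9* it reached 2389 bp upstream, where that of WT reached 115 bp, and ended at 1951 bp past the TSS, from 1465 bp. At *Nkx2-1* it grew mostly into the gene, to 4174 bp past the TSS from 2243 bp in WT, and in *Dnmt3b* KO ESCs it ended at 3960 bp past the TSS and also reached 831 bp upstream. *Nkx2-3* likewise grew mostly into the gene, to 1444 bp past the TSS from 577 bp, and *Nkx2-4* grew on both sides, from -95 to -631 bp and from 567 to 1848 bp.

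**Figure D3:**
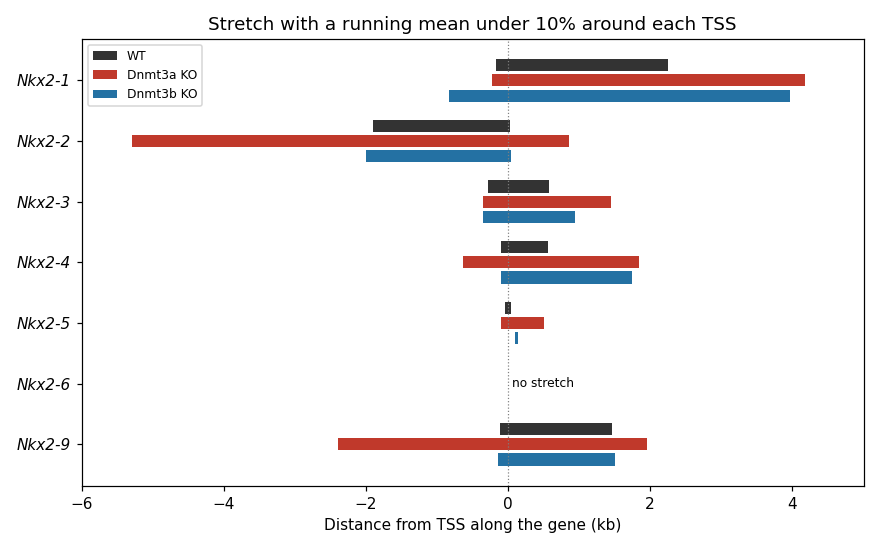
Position of the stretch with a running mean under 10% at each *Nkx2* gene, in kb from the TSS in the direction of transcription (horizontal axis), in WT (black), *Dnmt3a* KO (red) and *Dnmt3b* KO ESCs (blue). The red bars of *Nkx2-2* and *Nkx2-9* extend upstream, those of *Nkx2-1* and *Nkx2-3* into the gene, and *Nkx2-6* has no bar.

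The canyon length of 3.5 kb was reached by 0 members in WT ESCs (0.393% of all genes). It was reached by *Nkx2-1*, *Nkx2-2* and *Nkx2-9* in *Dnmt3a* KO ESCs, 3 members beside 4.28% of all genes, and by *Nkx2-1* in *Dnmt3b* KO ESCs, 1 member beside 1.11%. These lengths depend on the smoothing and the limit. Of the 7 genes, *Nkx2-9* alone was longer by more than 1 kb without *Dnmt3a* under every setting tried. The count of such members was 3 with 3 CpGs (*Nkx2-1*, *Nkx2-3* and *Nkx2-9*), and 4 with a limit of 20% (*Nkx2-2*, *Nkx2-3*, *Nkx2-4* and *Nkx2-9*). Under these settings the share over all genes is not given. With a limit of 20% the WT stretch was 4893 bp at *Nkx2-1* and 5944 bp at *Nkx2-2*, and with a mean over 500 bp on both sides 4333 and 5596 bp, so that both reached canyon length in WT ESCs. *Nkx2-3* in *Dnmt3a* KO ESCs measured 5501 bp with 11 CpGs, 5148 bp with at least 10 reads, 7791 bp with a limit of 20% and 7433 bp with a mean over 500 bp, where WT had 873 to 1488 bp. With a limit of 5% it was shorter than in WT, at 290 against 803 bp. Under that limit the WT stretch was only 2 bp at *Nkx2-1*, beside 4230 bp without *Dnmt3a*, and 20 bp at *Nkx2-4*. With a running mean of 11 CpGs the WT stretch of *Nkx2-1* was 4093 bp, and that of *Dnmt3a* KO and *Dnmt3b* KO ESCs 4524 and 4764 bp, so the growth at this gene fell below 1 kb. With 3 CpGs the stretch of *Nkx2-2* in *Dnmt3a* KO ESCs was 2458 bp, and at *Nkx2-4* it was 740 bp. With reads thinned to equal depth *Nkx2-4* measured 682 bp in *Dnmt3a* KO ESCs. With at least 10 reads in every genotype *Nkx2-2* measured 752 bp in WT and 1143 bp in *Dnmt3a* KO ESCs, and *Nkx2-9* 3010 and 4405 bp.

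The 2 kb just outside the WT stretch, its edges, are given next. Upstream of *Nkx2-4*, 16 CpGs averaged 59.7% in WT, 7.98% without *Dnmt3a* and 40.3% without *Dnmt3b*. Downstream of *Nkx2-9*, 20 CpGs averaged 49.8%, 8.39% and 45.5%, and upstream of it 40 CpGs averaged 17.9%, 0.919% and 10.2%. Upstream of *Nkx2-3*, 69 CpGs averaged 19%, 3.34% and 12.2%. These 4 edges were thus under 10% without *Dnmt3a*, whereas *Dnmt3b* KO ESCs stood closer to WT. Upstream of *Nkx2-5*, 35 CpGs averaged 83.2%, 40.5% and 76.0%, so the edge stayed methylated there in all genotypes, and its downstream edge had 27.9%, 7.47% and 20.7%. The upstream edge of *Nkx2-1* differed from these, with 26.6% in WT, 23.7% without *Dnmt3a* and 15.5% without *Dnmt3b*. The other 5 edges were under 10% in WT ESCs already.

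The gene bodies of the family were low in methylation, unlike most genes. The median over the 7 bodies was 3.87% in WT ESCs, beside 80.1% over 13903 genes. *Nkx2-1* had 3.19% in WT, 0.812% without *Dnmt3a* and 1.34% without *Dnmt3b*. *Nkx2-3* had 3.26%, 0.827% and 2.66%, *Nkx2-4* had 3.87%, 1.09% and 2.20%, and *Nkx2-9* had 3.47%, 0.588% and 3.10%. By read share the body of *Nkx2-9* had 2.84% in WT and 3.27% without *Dnmt3b*, and the interval of that difference covered 0 (-0.650 to 1.54 points). With at least 10 reads, 29 of 212 CpGs were left in *Nkx2-4*, and its body had 18.6%, 4.36% and 8.70%. Its low level thus rests largely on CpGs with fewer than 10 reads in some genotype. Over the 80 CpGs of its exon 1 WT ESCs had 0.69%, at a mean depth of 10.8 reads.

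The other 3 bodies held methylation. *Nkx2-2* had 18.9% in WT, 4.18% without *Dnmt3a* and 11.9% without *Dnmt3b*, *Nkx2-5* had 19.6%, 5.16% and 13.5%, and *Nkx2-6* had 42.9%, 19.9% and 34.4%. Only *Nkx2-6*, 1 of the 7, was lower by more than 20 points in *Dnmt3a* KO ESCs, beside 89.3% of all genes, and 0 were in *Dnmt3b* KO ESCs, beside 1.19%. The means of all other members' bodies were below 20% in WT ESCs, so such a drop was open only to *Nkx2-6*. By read share *Nkx2-6* passed this limit in *Dnmt3b* KO ESCs too, with 53.4% in WT and 27.8% in the KO. The median difference was -2.88 points without *Dnmt3a* and -1.85 points without *Dnmt3b*, beside -31.4 and -6.66 points over all genes. The low WT levels of the bodies also bound the members' median.

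Within the bodies of *Nkx2-2*, *Nkx2-3*, *Nkx2-5* and *Nkx2-6*, methylation lay mostly in introns and, at *Nkx2-6*, in the first exon. At *Nkx2-1*, *Nkx2-4* and *Nkx2-9* the last exon was highest in WT ESCs instead, with 5.49%, 8.60% and 4.72%. The intron of *Nkx2-5* (chr17:26976593-26977969, 47 CpGs) had 48.2% in WT, 13.2% without *Dnmt3a* and 37.2% without *Dnmt3b*, and its exon 2 had 8.54%, 2.05% and 3.39%. Intron 2 of *Nkx2-2* (chr2:147003681-147009981, 181 CpGs) had 26.8%, 5.83% and 17.6%, and its exon 2 was free of methylated reads in WT and *Dnmt3b* KO ESCs and had 0.921% in *Dnmt3a* KO ESCs. In *Nkx2-6* exon 1 (chr14:69789633-69790105, 14 CpGs) had 82.0%, 50.6% and 59.3%, the intron 77.7%, 41.1% and 69.8%, and exon 2 (chr14:69792689-69793596, 65 CpGs) 17.3%, 2.76% and 11.6%. Exon 2 of *Nkx2-6* was thus the lowest part of that gene in every genotype. Exon 2 of *Nkx2-1* (41 CpGs) had 0.443% in WT ESCs and no methylated read in either KO.

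In the flanks the family lay nearer to other genes than in the bodies. Its upstream median in WT ESCs was 47.6%, still below the lower quartile of all genes (56.2%, with a median of 73.0%). Downstream it was 79.0%, beside a median of 87.8%. In the 10 kb upstream, *Nkx2-4* had 65.7% in WT, 25.2% without *Dnmt3a* and 51.7% without *Dnmt3b*, and *Nkx2-6* had 80.2%, 50.8% and 71.9%. *Nkx2-1* had 52.5%, 29.8% and 40.4%, and *Nkx2-9* had 47.6%, 24.3% and 41.9%. *Nkx2-3* had 36.3%, 13% and 25.7%, and *Nkx2-5* 36.7%, 15.7% and 33.6%. *Nkx2-2* stood apart with 6.05%, 1.91% and 4.10% over 314 CpGs, but its low methylation was not continuous. In WT ESCs it had 32.9% between 5 and 6 kb and 23.6% between 6 and 7 kb. It had 0.504% between 7 and 8 kb, which holds its farthest annotated TSS, 0.744% between 8 and 9 kb and 25.4% between 9 and 10 kb. The upstream flank of *Nkx2-5* held a second low span, with 2.81% over 63 CpGs between 8 and 9 kb (chr17:26986511-26987510) in WT, no methylated read there without *Dnmt3a* and 1.88% without *Dnmt3b*.

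Of the 7 upstream flanks, 6, all but that of *Nkx2-2*, were lower by more than 20 points in *Dnmt3a* KO ESCs (89.2% of all genes), and 0 were in *Dnmt3b* KO ESCs (0.392%). The count was 5 by read share and with Crick strand reads, where *Nkx2-5* had -20.0 and -19.9 points, and 4 with flanks of 5 kb, where *Nkx2-1* had -14.0 and *Nkx2-9* -19.2 points. For these alternatives the share over all genes is not given. Differences without *Dnmt3a* ran from -4.14 points at *Nkx2-2* to -40.5 at *Nkx2-4*, with a median of -23.3 beside -31.3 over all genes. Without *Dnmt3b* they ran from -1.95 points at *Nkx2-2* to -14.0 at *Nkx2-4*, with a median of -8.32 beside -6.93. For the upstream flank of *Nkx2-9* in *Dnmt3b* KO ESCs the interval of the difference in read share reached 0 (-6.23 to 0.25 points).

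Downstream, all 7 flanks were methylated in WT ESCs, from 56.0% at *Nkx2-3* to 92.1% at *Nkx2-2*. In *Dnmt3a* KO ESCs they had 24.5% at *Nkx2-3*, 28.5% at *Nkx2-1*, 31.8% at *Nkx2-5*, 40.1% at *Nkx2-9*, 47.3% at *Nkx2-2*, 49.0% at *Nkx2-6* and 49.2% at *Nkx2-4*. In *Dnmt3b* KO ESCs the same flanks had 49.7%, 54.4%, 69.6%, 67.1%, 81.9%, 74.4% and 76.0%. At each gene the value without *Dnmt3a* was the lower one. All 7 were lower than WT by more than 20 points in *Dnmt3a* KO ESCs (92.9% of all genes) and 0 in *Dnmt3b* KO ESCs (0.47%). The median difference was -37.4 points without *Dnmt3a* and -10.1 without *Dnmt3b*, beside -33.7 and -7.05 over all genes.

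**Figure D4:**
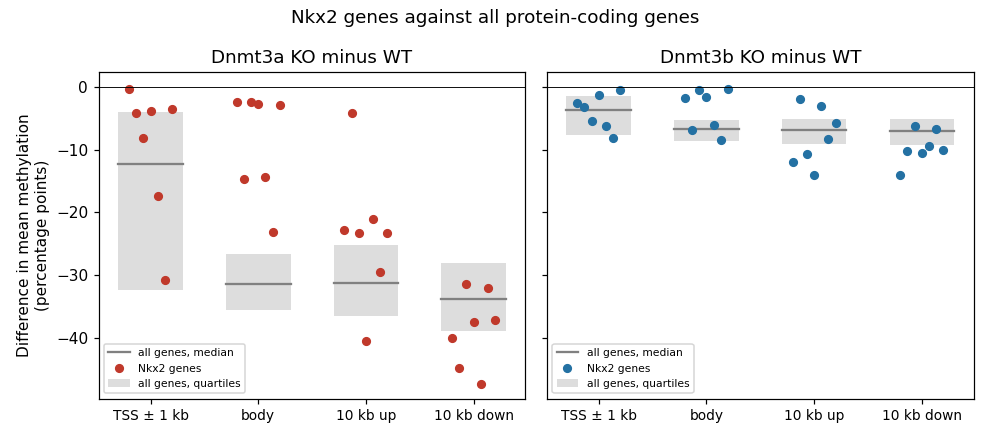
Difference from WT in mean methylation (percentage points, vertical axis) for the 7 *Nkx2* genes (points) in 4 spans, for *Dnmt3a* KO (left) and *Dnmt3b* KO ESCs (right), over the median (line) and the quartiles (grey boxes) of all protein-coding genes. At gene bodies all 7 red points lie above the grey box, and downstream 5 of the 7 points of either KO lie below the grey line.

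The flanks were also binned by distance, and upstream their level did not rise evenly. The median over the members of the 1 kb bin next to the TSS was 22.1% in WT, 5.73% without *Dnmt3a* and 12% without *Dnmt3b*. It was 63.7%, 20.2% and 52.6% between 2 and 3 kb, 39.6%, 18.1% and 33.4% between 3 and 4 kb, and 84.1%, 48.9% and 69.8% between 9 and 10 kb. *Nkx2-5* ran otherwise, with 94.7% in WT between 1 and 2 kb and 9.66% between 9 and 10 kb. Downstream the WT median was 79.3% in the bin next to the gene already, and *Dnmt3a* KO ESCs had 31.3% there and 59.2% between 9 and 10 kb. *Dnmt3b* KO ESCs had 68.4% and 78.3% in these bins. Bins hold 4 to 7 genes, since some have too few covered CpGs.

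**Figure D5:**
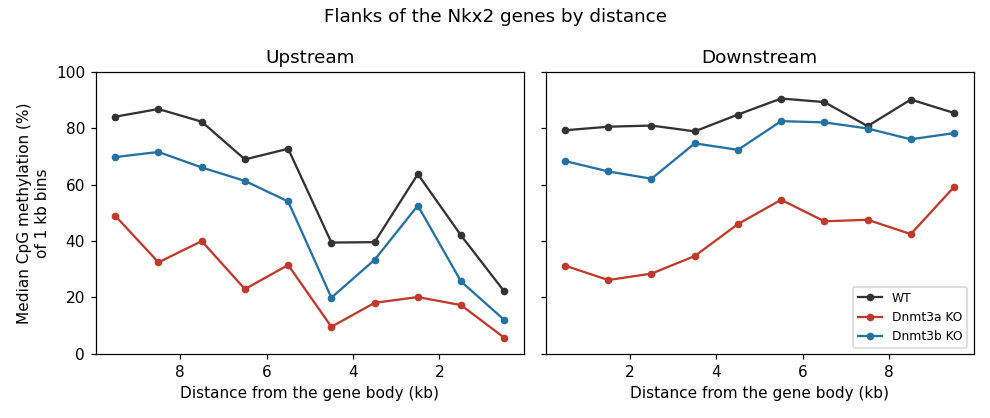
Median over the *Nkx2* genes of the CpG methylation (%, vertical axis) of 1 kb bins against the distance from the gene body in kb, upstream (left) and downstream (right), in WT (black), *Dnmt3a* KO (red) and *Dnmt3b* KO ESCs (blue); each bin holds 4 to 7 genes. The red line is lowest and the black line highest in every bin.

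Single CpGs were then compared. Of the 3200 CpGs, 1781 were under 20% in WT, 2336 without *Dnmt3a* and 1966 without *Dnmt3b*, and 775, 103 and 542 were at 80% or more. CpGs without any methylated read numbered 1404, 1958 and 1591. The largest share of highly methylated CpGs in WT ESCs was that of *Nkx2-6*, 54.6% of 260, which was 14.2% without *Dnmt3a* and 39.2% without *Dnmt3b*. The lowest was that of *Nkx2-2*, 13.4% of 702, which was 1.14% and 9.26%.

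A CpG counted as differentially methylated where its difference in pooled reads exceeded 0.2 over the whole 95% credible interval, which compares pooled reads and not replicates. In *Dnmt3a* KO ESCs 457 of 3237 CpGs of the family were hypomethylated, or 14.1%, beside 25.6% of all CpGs, and 0 were hypermethylated, beside 0.00697%. In *Dnmt3b* KO ESCs 76 of 3264 were hypomethylated, or 2.33%, beside 2.15%, and 4 were hypermethylated, beside 0.0688%. In WT ESCs 775 of the family's 3200 CpGs were at 80% or more, beside 10271354 of all 13328402, and no loss can be called where there is no methylation. Among CpGs at 80% or more in WT ESCs, 41.0% of the family's 775 were called hypomethylated in *Dnmt3a* KO ESCs, beside 29.8% of all 10271354. In *Dnmt3b* KO ESCs the shares were 6.32% and 2.23%. The mean of these 775 CpGs was 93.7% in WT, 47.9% without *Dnmt3a* and 79.2% without *Dnmt3b*, and over all such CpGs it was 94.8%, 58.3% and 85.9%. The WT reads that chose these CpGs also entered the comparison, so part of each fall follows from the choice. Depth was not matched between the family and all CpGs, so these shares are a description only.

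Most calls in *Dnmt3a* KO ESCs lay in flanks. *Nkx2-1* had 51 of 152 downstream CpGs called, *Nkx2-5* 45 of 94, *Nkx2-2* 40 of 93 and *Nkx2-3* 43 of 175. Around the TSS the calls numbered 10 of 38 at *Nkx2-6*, 8 of 68 at *Nkx2-5*, 6 of 78 at *Nkx2-3*, 5 of 169 at *Nkx2-4* and 1 of 57 at *Nkx2-9*, with 0 at *Nkx2-1* and *Nkx2-2*. The body of *Nkx2-9* had 0 of 93. The upstream flank of *Nkx2-2*, low in WT ESCs, had 2 of 317.

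Runs of at least 4 such CpGs within 300 bp of each other, differentially methylated regions (DMRs), numbered 26 in *Dnmt3a* KO ESCs, all hypomethylated and spread over all 7 genes, and 0 in *Dnmt3b* KO ESCs. Over body and flanks, 88.2% of all genes had such a DMR in *Dnmt3a* KO ESCs and 8.14% in *Dnmt3b* KO ESCs. The members had 1 to 7 each in *Dnmt3a* KO ESCs, with a median of 3 beside 6 over all genes. The median length of the 26 was 139 bp. The longest, chr2:146911789-146912542 with 8 CpGs over 754 bp, lies upstream of *Nkx2-4* and overlaps the *Nkx2-4* window printed above. The next, chr2:146908647-146909182 with 7 CpGs over 536 bp, covers the 3′ end of the same gene. *Nkx2-5* had 7 DMRs, of which chr17:26977009-26977150 and chr17:26977277-26977419 lie in its intron. At *Nkx2-6* the DMR chr14:69790105-69790194 spans the border of exon 1 and the intron. At *Nkx2-9* the DMR chr12:57716285-57716640 lies upstream of the TSS.

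Compared directly, *Dnmt3a* KO ESCs had 289 of 3234 CpGs lower than *Dnmt3b* KO ESCs by the same rule, or 8.94% beside 16.8% of all CpGs. Those higher numbered 2 of 3234, beside 7584 of all 13426478. The lower CpGs formed 6 DMRs, 5 at *Nkx2-5* and 1 at *Nkx2-3*, and 72% of all genes had at least 1. DMRs higher without *Dnmt3a* than without *Dnmt3b* were found at 0 members and 0.021% of all genes, and DMRs hypermethylated without *Dnmt3b* relative to WT at 0 members and 0.028%. Among the means of the 4 spans, that of the TSS region of *Nkx2-1* was higher without *Dnmt3a* than without *Dnmt3b*, with 4.34% against 2.15% and an interval of the difference in read share of 1.37 to 4.85 points, and this order turned within 500 bp of the TSS, as given above.

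A short run that crosses the upstream border of that region was chosen after its values were seen, so that they are a description only. At chr12:57638612-57639006, outside the gene, 13 CpGs were covered. Summed over the CpGs, the reads gave 47 methylated of 258 in WT (18.2%, 95% Wilson interval 14.0% to 23.4%), 90 of 318 in *Dnmt3a* KO (28.3%, 23.6% to 33.5%) and 33 of 350 in *Dnmt3b* KO ESCs (9.43%, 6.79% to 12.9%). The replicate spread behind these shares is not known.

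The 4 CpGs hypermethylated in *Dnmt3b* KO ESCs stood alone. At *Nkx2-5* the CpG at chr17:26978469, 41 bp past the TSS, had 0 of 17 methylated reads in WT, 0 of 10 without *Dnmt3a* and 12 of 18 without *Dnmt3b*. All 12 came from the plus strand (12 of 16), and the minus strand had 0 of 2. This CpG lies inside the short WT stretch of *Nkx2-5* and in *Dnmt3b* KO ESCs the stretch of 32 bp lay beyond it, from 104 bp past the TSS. At *Nkx2-2* the CpG at chr2:147006528 had 0 of 14, 0 of 13 and 8 of 13, with all 13 reads of *Dnmt3b* KO ESCs from the minus strand. At *Nkx2-6* the CpG at chr14:69793191 had 0 of 16, 0 of 13 and 5 of 8, all 5 from the minus strand. For these 3 CpGs the methylated reads came from 1 strand, and the part of strand in the result was not tested. Whether the *Dnmt3b* KO line has the reference sequence at these CpGs was not tested either. The fourth, chr14:69789001, 632 bp upstream of *Nkx2-6*, had 15 of 28, 20 of 24 and 20 of 20.

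Other transcripts overlap some of the spans. *Nkx2-2as* and *6430503K07Rik*, on the opposite strand, overlap *Nkx2-2* or its upstream flank, the one with the lowest WT mean of the family. *1700092C10Rik*, on the opposite strand, covers the TSS of *Nkx2-6*, and the 3′ end of *Xrn2* lies in the downstream flank of *Nkx2-4*. The farthest annotated TSS of *Nkx2-2* lies 7841 bp from the one used and that of *Nkx2-6* 419 bp. WGBS reads the DNA of all overlapping genes at once, so a value cannot be given to 1 of them.

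*Nkx2-1* and *Nkx2-9* lie 76.4 kb apart on chromosome 12, and *Pax9* lies 78.5 kb from *Nkx2-9*. *Pax9*, a paired box gene of pharyngeal and tooth development, had 13% at its TSS in WT, 4.31% without *Dnmt3a* and 8.39% without *Dnmt3b*. For 6 other *Nkx* genes KO values alone were analysed, and all 6 had lower TSS methylation without *Dnmt3a* than without *Dnmt3b*. They ran from 0.594% at *Nkx6-1* to 25.6% at *Nkx6-3* without *Dnmt3a*, and from 0.907% at *Nkx1-1* to 79.2% at *Nkx6-3* without *Dnmt3b*. By the Euclidean distance over 12 values, the 4 spans in 3 genotypes, the genes nearest to the median of the family among 13760 were *1110065P20Rik*, *Gm9955*, *Rps21*, *1700018A14Rik* and *Gm10517*, at 9.19 to 10.3 percentage points. The members lay from 4.84 at *Nkx2-9* to 142 at *Nkx2-6*, distances to a median built from their own values.

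Partners and targets of the NK2 factors were given as lists for comparison. Of 7 measured heart genes of 13, 4 were lower at the TSS by more than 20 points in *Dnmt3a* KO ESCs, among them *Mef2c* (87.7% in WT and 55.0% in the KO), and 0 in *Dnmt3b* KO ESCs. The median difference was -22.4 and -2.96 points. *Isl1*, a cardiac progenitor factor, had the smallest difference, with 4.67% in WT and 0.586% in *Dnmt3a* KO ESCs. Of 10 measured genes of 14 of ventral neural tube and Shh signalling, 0 were lower at the TSS by more than 20 points in either KO. The median difference was -1.41 and -1.83 points. Their median WT level was 3.43%, beside 32.1% in the heart list and 41.0% in that of lung, thyroid and pancreas. Only *Sim1* was above 20% in WT ESCs, so a drop of more than 20 points was open to it alone. Stretches of the 10 genes were longer by more than 1 kb for 5 without *Dnmt3a* and 3 without *Dnmt3b*, beside 15.2% and 3.01% of all genes. The largest growth was that of *Ptch1*, the Hedgehog receptor, with 3917 bp in WT and 8425 bp in *Dnmt3a* KO ESCs. *Ptch1* also had the smallest TSS difference, from 0.273% to 0.821%, and *Sim1* the largest, from 25% to 12%. Of 10 measured genes of 14 of lung, thyroid and pancreas, 6 were lower at the TSS in *Dnmt3a* KO and 1, *Hhex*, in *Dnmt3b* KO ESCs, with medians of -22.7 and -2.26 points. *Tg*, the thyroglobulin gene, had 85.0% in WT, 33.1% without *Dnmt3a* and 84.7% without *Dnmt3b*, and *Insm1*, a neuroendocrine factor, 1.03%, 0.184% and 0.419%. The shares of all genes given above for the TSS, 40.9% and 2.51%, stand beside these counts. Stretches were longer by more than 1 kb for 2 of the 7 heart genes without *Dnmt3a* and 0 without *Dnmt3b*. In the list of lung, thyroid and pancreas this held for 4 and 2 of the 10, beside the same 15.2% and 3.01% of all genes.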

How the data were processed

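The analysis started from 3 deposited WGBS tables, 1 per genotype of J1 ESCs, each merged by the authors from 3 libraries. According to the methods and the submitters' notes, the authors aligned reads to mm9 with BSMAP, corrected biases with BSeQC and counted reads per CpG with mCall of MOABS. The authors deposited read counts per CpG, all and methylated, by strand and without normalization, and per CpG the ratio of methylated to all reads, as a fraction. The last complete line of the WT table lies at position 140865857 of chromosome 4, and genes beyond it were not analysed in WT. An incomplete line after it was left out, and 0 lines failed the check that strands sum to the total. Non-CpG methylation was not analysed here.

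Values are means of methylated over all reads at CpGs that had 3 or more reads in each genotype, for genes with at least 5 such CpGs in a span. Genes were the longest isoforms of protein-coding genes of GENCODE for mm9, and sequences were read from that genome. The stretch was grown from the qualifying CpG nearest to the TSS and within 1 kb of it, and ended at 10% or at a gap of 1000 bp. Intervals are 95% Wilson intervals and intervals of differences formed from them. Reads were summed over the CpGs of a span and treated as independent, though 1 read can cover several CpGs, so these intervals can be too narrow. Credible intervals used Beta posteriors at CpGs listed in all 3 tables, with reads above 200 scaled to 200. Python 3.11.15 with NumPy 2.4.6, SciPy 1.17.1, numba 0.67.0 and matplotlib 3.10.9 was used, and the scripts were tested on simulated data. All 7 members are named, with genes within 100 kb, of which not all are reported here, the 5 most alike genes and, per list, the genes with the largest and smallest difference. Members, lists and limits were chosen with earlier results of these data known. The 300 bases printed at 2 TSSs end at the TSS, in place of a window around it, so that no untranslated sequence is shown.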

Additional observations from a re-analysis of the deposited data

How the results depend on the processing

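Of 90 counts recomputed under alternatives, 69 stayed within 1.5 times the value reported. Of the members' single values, 280 stayed within counting error or, for stretches, 1.5 times, 167 moved further and 1 that had passed its limit changed direction. At the TSS, members lower in *Dnmt3a* KO ESCs were 2 with at least 10 reads (*Nkx2-4* and *Nkx2-6*) and 2 with a limit of 10 points, and in *Dnmt3b* KO ESCs 1 with Watson strand reads. In gene bodies they were 0 with Crick strand reads, 3 with a limit of 10 points and 0 with 30 points without *Dnmt3a*, and 1 by read share without *Dnmt3b*. Upstream they were 1 with a limit of 30 points without *Dnmt3a* and 3 with 10 points without *Dnmt3b*, and downstream 4 with 10 points without *Dnmt3b*. Stretches longer by more than 2 kb were found for 2 members without *Dnmt3a* and 1 without *Dnmt3b*. The 2 members with a stretch longer by more than 1 kb without *Dnmt3b* became 1 with a running mean of 3 CpGs, a limit of 5% or at least 10 reads, which was *Nkx2-1*. It became 1 also with 11 CpGs, a limit of 20% or a mean over 500 bp on both sides, an alternative chosen after seeing the data, and this was *Nkx2-2*. The stretch of *Nkx2-4* in *Dnmt3b* KO minus WT was -194 bp with 3 CpGs. Shares over all genes are not given under these alternatives, so these counts of members cannot be set against other genes. Hypomethylated CpGs in *Dnmt3a* KO ESCs numbered 815 by Fisher's exact test with Benjamini-Hochberg adjustment (25.2%, beside 48.7% of all CpGs) and 695 with a credible difference of 0.1 (21.5%, beside 40.7%), and in *Dnmt3b* KO ESCs 156 with 0.1 (4.78%, beside 5.60%). The cause of these shifts was not tested beyond the setting changed. No paired analysis was possible because the tables hold the 3 libraries of a genotype as 1 sum, which also kept single replicates from being left out. Depth limits what single CpGs can show, and intervals cover counting error only.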
